A study of Homo sapiens with 18 samples.

Results

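8 regulators of blood clotting and clot breakdown, PROS1, TFPI, TFPI2, F2R, PLAU, PLAT, PLAUR and SERPINB2, were followed across the 6 groups of a study of the ETV6 variant p.R369W. The 8 were chosen by name, with earlier results of these data known. Counts of calls among them are therefore not those of a set fixed beforehand. All 8 are among the 20833 gene identifiers of the count table. A filter on low counts kept 12262 genes, which included 7 of the 8, and PLAT did not pass it.

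The study put ETV6, ETV6 carrying R369W, or an empty vector (EV) into MEG-01, a human megakaryoblastic leukemia line named Meg01 in the labels. The vectors were lentiviral and cells were taken on day 3. Cells labelled WT are called unedited below and held 3 libraries per vector, numbered 2, 3 and 4. Cells labelled as an ETV6 knockout held 3 libraries per vector, numbered 1, 2 and 4. All 18 libraries therefore carry a lentiviral vector, and none is of untransduced cells. The labels leave out the promoter that drives the vector gene and whether the knockout cells are 1 clone or several. ETV6 is an ETS family protein that represses transcription, and R369W changes its DNA-binding domain.

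Thrombin is the protease that turns fibrinogen into fibrin. It is held in check by inhibitors and by the protein C and protein S pathway, and it signals to platelets and their precursors through protease-activated receptors. Fibrin is broken down by plasmin, which urokinase and tissue plasminogen activator release from plasminogen, and serpins block those activators. Megakaryocytes, the precursors of platelets, make several of these proteins and pass some of them on in platelet granules.

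Depth ran from 12577816 to 18927506 gene reads per library. The share of unaligned reads was 0.527% to 0.809% in the EV libraries of both genotypes, against 0.279% to 0.349% under the other vectors, so each comparison with EV also compares libraries that stood apart in this measure. Levels are in CPM, the reads of a gene scaled to 1 common library size. ETV6 stood at a mean of 96.3 ± 42.7 CPM (SD, n = 3) with EV in unedited cells and 85.1 ± 40.7 in knockout cells, so its total reads do not tell the 2 genotypes apart. With a vector gene it averaged between 1692 and 2541 CPM. In the library names, knockout ETV6 replicate 1 is number 4 and knockout R369W replicate 4 is number 10, outside the runs of their groups. Number 4 stands next to 5 and 6 of knockout R369W, and number 10 next to 11 and 12 of knockout ETV6. Whether the 2 libraries were exchanged was not tested, and the knockout calls are given with and without both. In their deviations from the group mean across genes, knockout R369W replicates 1, 2 and 4 correlated negatively with the EV and ETV6 libraries that carry their own number. They correlated at 0.739 to 0.872 with those numbered 2, 4 and 1, in that order, so what their numbers mean is uncertain. The markers that define the line were present, with ITGA2B between 779 and 1662 CPM and GATA1 between 120.0 and 242, whereas PF4 was at 0 and PPBP was under 1 CPM in every library. In bulk RNA, fewer cells of a type and less RNA per cell cannot be told apart.

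The RefSeq promoter sequences (GRCh38.p14) of PROS1, TFPI2, SERPINB2 and PLAUR are shown, because these RNAs passed a test with the ETV6 vector below, in the unpaired fit or in the one that pairs libraries by number, and their windows hold one of 2 motifs. Each runs from 250 bases before to 50 after the start site, 5′ to 3′, with the matches in capitals. The motifs are GGAAGT, a core of ETS family sites, searched on both strands, and TGANTCA, where N is any base. TGANTCA is a loose form of the core of AP-1 sites and, as a pattern, reads the same on both strands. The motifs were chosen after the values had been seen, and each window shown holds a match because it was picked for one. Neither motif overlaps the other. The windows are chr3:93973847-93974146 on the minus strand, chr7:93890704-93891003 on the minus strand, chr18:63887455-63887754 on the plus strand and chr19:43670120-43670419 on the minus strand.
PROS1: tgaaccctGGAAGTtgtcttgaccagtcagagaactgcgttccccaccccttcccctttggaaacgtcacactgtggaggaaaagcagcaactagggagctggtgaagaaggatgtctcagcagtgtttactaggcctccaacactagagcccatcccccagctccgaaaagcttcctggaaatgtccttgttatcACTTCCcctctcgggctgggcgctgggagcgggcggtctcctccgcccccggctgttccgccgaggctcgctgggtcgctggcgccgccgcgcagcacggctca
TFPI2: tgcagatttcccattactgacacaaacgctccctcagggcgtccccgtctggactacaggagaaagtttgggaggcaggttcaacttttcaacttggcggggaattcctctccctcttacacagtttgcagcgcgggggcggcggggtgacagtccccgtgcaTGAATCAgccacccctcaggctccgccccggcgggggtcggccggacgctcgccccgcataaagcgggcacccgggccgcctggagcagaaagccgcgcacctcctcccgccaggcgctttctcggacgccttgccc
SERPINB2: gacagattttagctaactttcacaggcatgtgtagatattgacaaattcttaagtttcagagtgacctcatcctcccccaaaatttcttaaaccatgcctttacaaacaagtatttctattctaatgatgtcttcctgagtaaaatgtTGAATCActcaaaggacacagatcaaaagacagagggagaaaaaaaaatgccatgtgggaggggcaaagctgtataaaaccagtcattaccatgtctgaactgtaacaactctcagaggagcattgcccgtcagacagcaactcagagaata
PLAUR: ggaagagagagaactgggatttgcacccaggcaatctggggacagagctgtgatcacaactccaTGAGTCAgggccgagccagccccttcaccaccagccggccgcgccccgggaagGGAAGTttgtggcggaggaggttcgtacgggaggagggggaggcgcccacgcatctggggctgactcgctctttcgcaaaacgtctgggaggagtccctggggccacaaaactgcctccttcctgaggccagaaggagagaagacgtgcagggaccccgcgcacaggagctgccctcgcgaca

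PROS1 held 2 matches to GGAAGT, one 242 bases upstream of the start site and one on the opposite strand 54 bases upstream. TFPI2 and SERPINB2 held none, and each matched TGANTCA with the letters TGAATCA, 87 and 102 bases upstream. PLAUR held 1 GGAAGT 133 bases upstream and TGAGTCA 186 bases upstream. TFPI, not shown, held 1 GGAAGT 69 bases upstream, and the 2 PLAU windows held neither motif. GGAAGT lay in 22.8% and TGANTCA in 7.71% of 35116 promoter windows of this length, and a match describes letters and not a bound site. 6 of the 8 genes had an entry, and F2R and PLAT had none. PLAU and F2R also passed with the ETV6 vector in the fit that pairs libraries by number.

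Levels of different genes were compared per kilobase of exon. In unedited EV cells F2R was the highest at 22.2 ± 7.09 CPM per kilobase (SD, n = 3). PROS1 followed at 10.5 ± 1.31 and TFPI at 4.80 ± 0.528. PLAUR stood at 2.07 ± 0.318, PLAU at 1.88 ± 0.977, SERPINB2 at 1.08 ± 0.801 and TFPI2 at 0.640 ± 0.400, and no neighbours among these 4 differed by more than the larger of their SDs. PLAT was last at 0.0246 ± 0.0231. Across the 18 libraries the highest CPM was 6.00 times the lowest for PROS1, 5.57 for F2R, 5.41 for PLAU, 2.56 for TFPI and 2.05 for PLAUR. TFPI2 and SERPINB2 had libraries with 1 and 0 reads, so no such ratio is given for them.

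PROS1 (ENSG00000184500, GRCh38 chromosome 3, 93873033 to 93980003, minus strand) encodes protein S, the cofactor of activated protein C and of TFPI and a ligand of the TAM receptor kinases. In unedited cells, in the order of replicates 2, 3 and 4, it stood at 59.5, 62.5 and 48.8 CPM with EV. With ETV6 it stood at 23.0, 28.9 and 28.1 CPM. With R369W it stood at 78.0, 87.5 and 94.1 CPM. The 3 groups did not overlap, with ETV6 lowest and R369W highest. Here and below, the share of all genes whose vector groups do not overlap is not given. With 3 libraries a group, a lack of overlap between vectors is therefore a description only.

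PROS1 fell by 1.09 on the log2 scale with ETV6 against EV in unedited cells (SE 0.18; edgeR adjusted p = 0.0130). It was the 1 of 7 tested genes of the set that passed, against 0.302% of all genes tested in either direction and 0.285% that were lower. This call was lost without unedited EV replicate 2 (adjusted p = 0.0607) or 3 (0.0873), without unedited ETV6 replicate 2 (0.114) or 3 (0.0537), and in a fit of the 2 groups alone (0.225). With the replicate number as a block the change was the same size with an adjusted p of 2.42e-06, and the 13 alternatives ran from 2.42e-06 to 0.225. Within a replicate number, PROS1 with ETV6 was 0.387, 0.463 and 0.576 of its EV level.

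PROS1 was higher with R369W than with ETV6 in unedited cells by 1.70 on the log2 scale (SE 0.18; edgeR adjusted p = 1.23e-04), a 3.24-fold difference. It was again the 1 of 7 genes that passed, against 1.20% of all genes in either direction and 1.13% that were higher, and the call held in each alternative, with adjusted p up to 0.00817. This comparison uses no EV library. R369W against EV gave a difference of 0.60 (SE 0.18; edgeR unadjusted p = 0.0037, adjusted p = 1), and none of the 7 genes passed there, against 0.0245% of all genes. In that comparison 1 of the 7 had an unadjusted p under 0.05, against 248 of the 12262 genes. DESeq2 and limma-voom called none, against 0.106% and 0.00816% of all genes. With the replicate number as a block PROS1 passed (log2 difference 0.60, adjusted p = 0.00129, the alternatives running up to 1), against 2.14% of all genes in that fit. Its R369W level was 1.31, 1.40 and 1.93 times the EV level of the same number.

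In knockout cells, in the order of replicates 1, 2 and 4, PROS1 stood at 136, 96.0 and 138 CPM with EV. Its ETV6 libraries stood at 41.7, 29.2 and 45.5 CPM. Its R369W libraries stood at 91.1, 102 and 120.0 CPM. ETV6 libraries were again the lowest with no overlap, whereas R369W and EV libraries overlapped.

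PROS1 fell by 1.67 on the log2 scale with ETV6 against EV in knockout cells (SE 0.18; edgeR adjusted p = 8.09e-05), with ratios of 0.305, 0.304 and 0.330 within replicate numbers. It was the 1 of 7 genes that passed, against 1.83% of all genes in either direction and 1.57% that were lower. R369W against ETV6 gave a rise of 1.43 (SE 0.18; edgeR adjusted p = 4.97e-04), again for 1 of 7 genes against 1.23% of all genes in either direction and 1.07% that were higher. Without both knockout libraries of out-of-run number these were -1.72 (adjusted p = 0.00117, all 14 alternatives up to 0.0243) and 1.37 (adjusted p = 0.0146, alternatives up to 0.0330). R369W against EV gave -0.24 for PROS1 (SE 0.17, edgeR adjusted p = 0.574). None of the 7 genes passed there, against 0.0571% of all genes, and limma-voom called none, against 0.0816%. None had an unadjusted p under 0.05, against 1695 of the 12262 genes. DESeq2 gave an adjusted p to 3 of the 7 there and called none of those. Without both libraries the PROS1 difference was -0.36 (edgeR adjusted p = 0.420).

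Between genotypes PROS1 differed too. With EV it was 1.12 higher on the log2 scale in knockout than in unedited cells (SE 0.18, edgeR adjusted p = 0.00168), a 2.17-fold difference. All 3 knockout libraries lay above all 3 unedited ones, as was the case for 12.6% of all genes. PROS1 passed in all 13 alternatives, with adjusted p up to 0.0349. It was the 1 of 7 genes that passed, against 4.33% of all genes in either direction and 3.31% that were higher. With ETV6 the difference was 0.54 (SE 0.18; edgeR adjusted p = 0.124) and with R369W 0.27 (SE 0.17; edgeR adjusted p = 0.390). None of the 7 passed with ETV6, against 2.53% of all genes, and none with R369W, against 4.18%. At an unadjusted p under 0.05 they numbered 3 with ETV6, against 2171 of the 12262 genes, and 1 with R369W, against 2694. DESeq2 called 1 and 0 of the 7, against 6.04% and 8.24% of all genes, and limma-voom called none, against 1.31% and 3.39%. Without both libraries of out-of-run number the PROS1 differences with ETV6 and R369W were 0.49 (edgeR adjusted p = 0.322) and 0.16 (edgeR adjusted p = 0.685). Without knockout ETV6 replicate 2, PROS1 passed with ETV6 at 0.71 (adjusted p = 0.0460, the 14 alternatives running up to 0.423).

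The change with R369W against EV was lower in knockout than in unedited cells by 0.85 for PROS1 (interaction, SE 0.25; edgeR unadjusted p = 0.0038, adjusted p = 1.00), which does not pass over all genes. The interaction for ETV6 against EV was -0.58 (SE 0.25; edgeR adjusted p = 1.00). None of the 7 genes passed in any of the 3 interactions, against 0.0245%, 0.0408% and 0% of all genes for ETV6 against EV, R369W against EV and R369W against ETV6. At an unadjusted p under 0.05 they numbered 1, 1 and 0, against 233, 520 and 124 of the 12262 genes. DESeq2 and limma-voom called none of the 7. The comparisons of ETV6 and of R369W with EV share the EV libraries.

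Summed levels of markers of some cell types differed between these groups, and a few genes weighed most in each sum. Over the 18 libraries the median was 226 CPM for CD68 and 86.9 for ITGAM in the monocyte and macrophage list. It was 560 for HBG1 and 462 for HBG2 in the erythroid list, and 1027 for ITGA2B and 671 for TAL1 in the megakaryocyte list. The summed level of 14 monocyte and macrophage markers was 265 to 330.5 CPM in unedited ETV6 libraries, 375 to 568 with EV and 506 to 647 with R369W. In knockout cells the sums were 145 to 257 CPM with ETV6, 302 to 499 with EV and 287 to 502 with R369W. Of these 14 markers 6 passed the count filter, and CD14, FCGR3A, MS4A7, VCAN, S100A8, S100A9 and CD163 were under 1 CPM in every library. The sum of 14 erythroid markers, all past the filter, was 1676 to 3551 CPM in unedited and 442 to 1643 in knockout libraries. The sum of 18 megakaryocyte markers, 15 of them past the filter, was higher in knockout than in unedited libraries without overlap: 2833 to 3368 against 2390 to 2648 CPM with EV, 2720 to 3175 against 2312 to 2460 with ETV6 and 3072 to 3834 against 2541 to 2844 with R369W. Their part in the PROS1 and F2R differences was not tested.

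**Figure D1:**
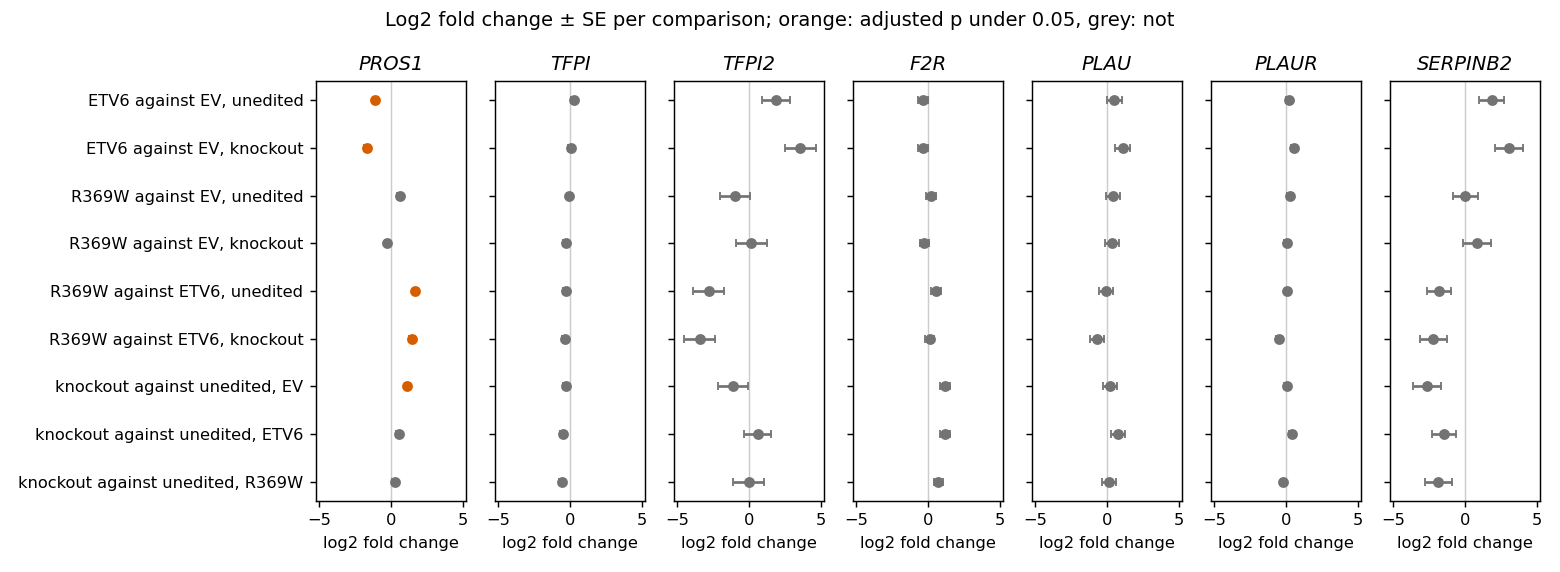
Log2 fold change with its SE for the 7 tested genes (panels) in the 9 comparisons of 2 groups (rows), from edgeR over all 18 libraries without pairing by replicate number. Pairing changed SEs and calls: for ETV6 against EV in unedited cells the SE of TFPI2 was 0.99 here and 0.27 with the block. Orange points passed an adjusted p of 0.05 and grey points did not: the 5 orange points are all PROS1, and the SE of TFPI2 and SERPINB2 is several times that of PROS1.

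TFPI (ENSG00000003436, chromosome 2, 187464230 to 187565760, minus strand) encodes the inhibitor of the tissue factor and factor VIIa complex and of factor Xa. Its group means ran from 54.6 ± 4.91 to 67.1 ± 7.60 CPM (SD, n = 3) in unedited cells and from 37.5 ± 8.65 to 48.5 ± 12.0 in knockout cells. The lowest of the 18 libraries stood at 29.6 CPM and the highest at 75.8. Knockout against unedited gave -0.27 on the log2 scale with EV (SE 0.19; edgeR adjusted p = 0.512). With ETV6 it gave -0.47 (SE 0.19; edgeR adjusted p = 0.211) and with R369W -0.54 (SE 0.19; edgeR adjusted p = 0.123). With libraries blocked by number, TFPI was lower with R369W than with ETV6 in unedited cells by 0.30 on the log2 scale (SE 0.087; edgeR adjusted p = 0.0264, the alternatives running up to 1). Without knockout R369W replicate 1 it was lower in knockout than in unedited R369W cells by 0.73 (adjusted p = 0.0439, the alternatives running up to 0.439), and without both libraries of out-of-run number the difference was -0.52 (adjusted p = 0.243). Neither passed in the fit of all libraries without the block.

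TFPI2 (ENSG00000105825, chromosome 7, 93885396 to 93890991, minus strand) encodes an inhibitor of plasmin and other serine proteases. In unedited cells it stood at 1.13, 1.06 and 2.95 CPM with EV in replicates 2, 3 and 4. ETV6 libraries held 1.97, 5.43 and 11.5 CPM. R369W libraries held 0.0820, 0.475 and 2.09 CPM, the lowest of these resting on 1 read. Replicate 4 was the highest library under each vector, and the groups overlapped although each number had its highest level with ETV6.

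In knockout cells TFPI2 stood at 0.730, 0.0762 and 1.61 CPM with EV in replicates 1, 2 and 4. The ETV6 libraries stood at 14.4, 3.61 and 10.6 CPM. The R369W libraries stood at 0.0770, 1.61 and 0.965 CPM. All 3 ETV6 libraries lay above all libraries of the other vectors.

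In edgeR without pairing, TFPI2 did not pass in any comparison: ETV6 against EV gave 1.86 on the log2 scale in unedited cells (SE 0.99; edgeR adjusted p = 1) and 3.56 in knockout cells (SE 1.07; edgeR adjusted p = 0.134). With the replicate number as a block the values were 1.85 (SE 0.27; edgeR adjusted p = 3.44e-04, alternatives up to 1) and 3.64 (SE 0.31; edgeR adjusted p = 8.94e-06, alternatives up to 0.403). Within numbers the ETV6 level was 1.73, 5.12 and 3.88 times the EV level in unedited cells. In knockout cells it was 19.8, 47.3 and 6.57 times the EV level, where the EV library of the second ratio held 1 read. R369W against ETV6 gave -2.81 in unedited cells (SE 1.05; edgeR adjusted p = 0.361) and, with the block, -2.84 (SE 0.32; edgeR adjusted p = 7.57e-06, alternatives up to 0.785). In knockout cells R369W against ETV6 gave -3.42 (SE 1.06; edgeR adjusted p = 0.165). DESeq2 called both knockout differences of TFPI2, with adjusted p of 0.0175 against EV and 0.0309 for R369W against ETV6 (alternatives up to 0.483). Without both knockout libraries of out-of-run number they were 3.13 (edgeR adjusted p = 0.403) and -3.06 (edgeR adjusted p = 0.483). R369W against EV gave -0.95 in unedited and 0.14 in knockout cells, and knockout against unedited gave -1.10 with EV, 0.60 with ETV6 and -0.0082 with R369W, each with an SE of 0.94 to 1.07. The interaction of ETV6 against EV with genotype was 1.70 (SE 1.40; edgeR adjusted p = 1.00).

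Pairing by number changed the calls of several of these genes. In the blocked fits 5 of the 7 genes passed with ETV6 against EV in unedited cells, against 8.15% of all genes, and 6 of the 7 in knockout cells, against 24.7%. For R369W against ETV6 in unedited cells 5 of the 7 passed, against 16.9% of all genes. DESeq2, without pairing, called 3 of the 7 between genotypes with EV, against 7.28% of all genes, and 1 with ETV6, against 6.04%. In knockout cells it called 3 with ETV6 against EV, against 3.27% of all genes, and 2 with R369W against ETV6, against 2.95%. In the blocked fits PROS1 and F2R were called lower with ETV6 than with EV in both genotypes, and TFPI2, SERPINB2 and PLAU were called higher in both. TFPI (0.26 in unedited and 0.051 in knockout cells) and PLAUR (0.18 and 0.54) were also higher, but of these only PLAUR in knockout cells was called.

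SERPINB2 (ENSG00000197632, chromosome 18, 63871692 to 63903890, plus strand) encodes plasminogen activator inhibitor type 2, which blocks urokinase and tissue plasminogen activator. In unedited cells it stood at 2.87, 0.834 and 5.23 CPM with EV in replicates 2, 3 and 4. With ETV6 it stood at 6.31, 7.47 and 18.5 CPM. With R369W it stood at 3.36, 1.11 and 4.65 CPM. ETV6 libraries lay above the other groups without overlap, and EV and R369W libraries of the same number lay close together, within 0.890 to 1.33 times of each other.

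In knockout cells SERPINB2 stood at 0.938 and 0.383 CPM with EV in replicates 1 and 4, and at 0 in replicate 2, which at this depth allows up to 0.228 CPM (3 reads). Its ETV6 libraries stood at 7.02, 1.23 and 3.35 CPM in replicates 1, 2 and 4. Its R369W libraries stood at 0.385, 0.536 and 1.56 CPM. ETV6 libraries lay above all EV libraries, and R369W libraries overlapped both.

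SERPINB2 did not pass in edgeR without pairing. ETV6 against EV gave 1.84 on the log2 scale in unedited cells (SE 0.86; edgeR adjusted p = 1) and, with the block, 1.86 (SE 0.25; edgeR adjusted p = 1.23e-04, alternatives up to 1). In knockout cells it gave 3.03 (SE 0.97; edgeR adjusted p = 0.167) and, with the block, 3.10 (SE 0.35; edgeR adjusted p = 7.66e-05, alternatives up to 0.501), and DESeq2 gave an adjusted p of 0.0238. Without both knockout libraries of out-of-run number the difference was 2.28 (edgeR adjusted p = 0.484). R369W against ETV6 in unedited cells gave -1.82 (SE 0.86; edgeR adjusted p = 0.561) and the same size with the block (SE 0.25; edgeR adjusted p = 7.94e-05, alternatives up to 0.937). In knockout cells R369W against ETV6 gave -2.21 (SE 0.92; edgeR adjusted p = 0.338, alternatives from 0.186 to 0.704). Between genotypes with EV, SERPINB2 gave -2.66 (SE 0.96; edgeR adjusted p = 0.148), and DESeq2 gave an adjusted p of 0.0402 (alternatives from 0.0139 to 0.381). With ETV6 the genotype difference was -1.47 (SE 0.85; edgeR adjusted p = 0.385, alternatives from 0.00636 to 0.669). With R369W it was -1.86 (SE 0.92; edgeR adjusted p = 0.252). R369W against EV gave 0.023 in unedited cells (SE 0.85; edgeR adjusted p = 1) and 0.82 in knockout cells (SE 1.00; edgeR adjusted p = 0.792).

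**Figure D2:**
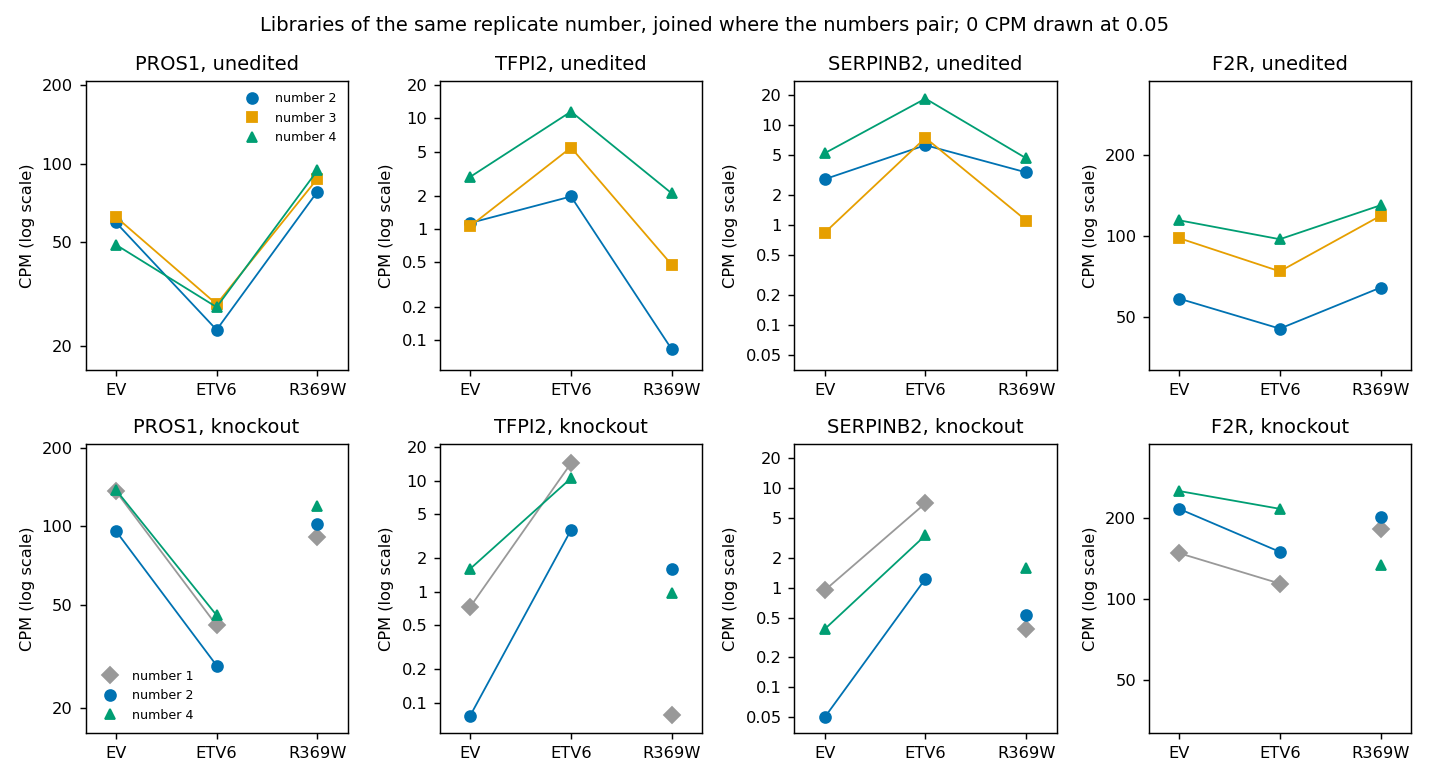
CPM on a log axis for PROS1, TFPI2, SERPINB2 and F2R by vector, unedited cells above and knockout cells below, with libraries of the same replicate number joined where the numbers pair. A library at 0 CPM is drawn at 0.05. Each unedited line of TFPI2 and SERPINB2 peaks at ETV6 and each line of PROS1 and F2R dips there, and within each gene the 3 knockout lines from EV to ETV6 run in 1 direction.

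F2R (ENSG00000181104, chromosome 5, 76716043 to 76735781, plus strand) encodes PAR1, the main thrombin receptor of human platelets. In unedited cells it stood at 58.5, 98.3 and 115 CPM with EV in replicates 2, 3 and 4. ETV6 libraries held 45.2, 73.9 and 97.4 CPM. R369W libraries held 64.3, 119 and 130.3 CPM. Replicate 2 was the lowest and replicate 4 the highest under each vector, so the vector groups overlapped.

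In knockout cells F2R stood at 148, 216 and 252 CPM with EV in replicates 1, 2 and 4. The ETV6 libraries stood at 114, 150 and 216 CPM. The R369W libraries stood at 181, 202 and 134 CPM. Under each vector all 3 knockout libraries lay above all 3 unedited ones, as was the case for 12.6%, 11.5% and 11.6% of all genes with EV, ETV6 and R369W.

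The genotype difference of F2R was 1.18 on the log2 scale with EV (SE 0.34; edgeR adjusted p = 0.0703), 1.15 with ETV6 (SE 0.35; edgeR adjusted p = 0.0964) and 0.72 with R369W (SE 0.34; edgeR adjusted p = 0.233), none of which passed. DESeq2 gave adjusted p of 0.00958 with EV and 0.0151 with ETV6, and the alternatives ran up to 0.270 and 0.343. Without both libraries of out-of-run number the differences with ETV6 and R369W were 1.34 (edgeR adjusted p = 0.132) and 0.87 (edgeR adjusted p = 0.214). Between vectors, ETV6 against EV gave -0.33 in unedited cells (SE 0.34; edgeR adjusted p = 1) and, with the block, -0.34 (SE 0.062; edgeR adjusted p = 0.00223, alternatives up to 1). In knockout cells it gave -0.36 (SE 0.34; edgeR adjusted p = 0.755) and, with the block, -0.37 (SE 0.062; edgeR adjusted p = 0.00117, alternatives up to 0.934). Each of the 6 pairs of the same number had less F2R with ETV6, at 0.691 to 0.858 times the EV level. R369W against ETV6 in unedited cells gave 0.53 (SE 0.34; edgeR adjusted p = 0.762) and, with the block, 0.54 (SE 0.062; edgeR adjusted p = 1.02e-05, alternatives up to 0.980). In knockout cells R369W against ETV6 gave 0.11 (SE 0.34; edgeR adjusted p = 0.954). R369W against EV gave 0.21 in unedited cells (SE 0.34; edgeR adjusted p = 1) and -0.25 in knockout cells (SE 0.34; edgeR adjusted p = 0.819).

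PLAU (ENSG00000122861, chromosome 10, 73909177 to 73917497, plus strand) encodes urokinase, and its libraries ran from 3.75 to 20.3 CPM. Replicate 3 was the highest unedited library under each vector, at 8.87 CPM with EV, 11.8 with ETV6 and 12.0 with R369W. ETV6 libraries held 1.33 to 1.65 times the EV level of the same number in unedited cells and 1.31 to 2.48 times in knockout cells. Without pairing neither ETV6 difference passed, at 0.51 on the log2 scale (SE 0.49; edgeR adjusted p = 1) and 1.07 (SE 0.49; edgeR adjusted p = 0.391). With the block they were 0.53 (SE 0.14; edgeR adjusted p = 0.0292, alternatives up to 1) and 1.03 (SE 0.17; edgeR adjusted p = 0.00102, alternatives up to 0.751). Without both libraries of out-of-run number the knockout difference was 0.67 (edgeR adjusted p = 0.751). R369W libraries in unedited cells held 1.29 to 1.36 times the EV level, and R369W against ETV6 gave -0.091 on the log2 scale (SE 0.49; edgeR adjusted p = 1). Without pairing PLAU did not pass between genotypes under any vector.

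PLAUR (ENSG00000011422, chromosome 19, 43646095 to 43670547, minus strand) encodes the cell-surface receptor that holds urokinase. Its 18 libraries lay between 7.66 and 15.7 CPM. In knockout cells the 3 ETV6 libraries stood at 15.7, 12.8 and 12.7 CPM, above those of EV at 10.3, 8.68 and 9.35 CPM. That difference was 0.54 on the log2 scale (SE 0.20; edgeR adjusted p = 0.235) and passed with the block (SE 0.12; edgeR adjusted p = 0.00658, alternatives up to 0.564). Without both libraries of out-of-run number it was 0.43 (edgeR adjusted p = 0.561). In unedited cells it was 0.18 (SE 0.20; edgeR adjusted p = 1).

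PLAT (ENSG00000104368, chromosome 8, 42175233 to 42207724, minus strand), which encodes tissue plasminogen activator, had 27 reads in all 18 libraries together and at most 5 in one. Summed over the 3 libraries of a group, the unedited cells had 7 reads with EV, 3 with ETV6 and 1 with R369W, and the knockout cells 3, 7 and 6. PLAT was not tested with the filter. With no count filter edgeR gave it adjusted p of 0.528 to 1 in the 12 tests, so no difference of PLAT was detectable at this depth.

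The other genes of the same pathways were taken from 4 lists that hold 60 genes, of which 34 passed the count filter. Of 8 tested coagulation factors and cofactors, none passed in edgeR in any of the 9 comparisons of 2 groups, with 6 of 72 tests at an unadjusted p under 0.05, 1 call by DESeq2 and 0 by limma-voom. Of 10 tested genes of fibrinolysis and its inhibitors, none passed either, with 11 of 90 tests at an unadjusted p under 0.05 and no call by DESeq2 or limma-voom. Across the 9 comparisons, 248 to 2694 of the 12262 genes had an unadjusted p under 0.05, and DESeq2 called 0.106% to 8.24% of all genes. Of 5 tested anticoagulants, 1 passed in 1 comparison: ANXA5, a phospholipid-binding protein, was lower in knockout than in unedited EV cells by 0.39 on the log2 scale (SE 0.095; edgeR adjusted p = 0.0301), against 4.33% of all genes called there, and this call was lost on leaving out any 1 of the 6 libraries.

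The other calls were in the list of protease-activated receptors and thrombin signalling, and the receptors of the list were not among them. ARHGEF1, a RhoA exchange factor downstream of G12 and G13 proteins, fell by 0.92 on the log2 scale with ETV6 against EV in unedited cells (SE 0.14; edgeR adjusted p = 0.00715) and by 1.18 in knockout cells (SE 0.14; edgeR adjusted p = 1.96e-04). PLCB2, a phospholipase C of the Gq pathway, fell by 0.74 (SE 0.13; edgeR adjusted p = 0.0230) and 0.68 (SE 0.13; edgeR adjusted p = 0.0129) in the same comparisons. With R369W against ETV6 both were higher, ARHGEF1 by 1.05 and 1.19 and PLCB2 by 1.09 and 0.91 in unedited and knockout cells, which, with the falls, made 2 of 11 genes called in each of these 4 comparisons. Over all genes the shares were 0.302% and 1.83% for ETV6 against EV and 1.20% and 1.23% for R369W against ETV6. PLCB3 was higher in knockout than in unedited R369W cells by 0.51 (SE 0.13; edgeR adjusted p = 0.0425), 1 of 11 genes against 4.18% of all genes. With ETV6 against EV in unedited cells ARHGEF1 did not pass without unedited EV replicate 3, nor PLCB2 without that library or any 1 of the 3 ETV6 libraries, and in a fit of the 2 groups alone neither passed (adjusted p = 0.280 and 0.377). In knockout cells PLCB2 did not pass without EV replicate 4 or ETV6 replicate 1 or 2, without both libraries of out-of-run number (adjusted p = 0.0561) or in a fit of the 2 groups alone (0.0681). Without both libraries PLCB2 passed for R369W against ETV6 (0.99, adjusted p = 0.0183), and ARHGEF1 passed in both comparisons (-1.07, adjusted p = 0.00250, and 1.16, adjusted p = 0.00417). For R369W against ETV6 in knockout cells PLCB2 passed in 13 of the 14 alternatives. The exception was the replicate block (edgeR adjusted p = 0.0578), which joins knockout R369W libraries by numbers that did not pair. PLCB3 did not pass without both libraries (adjusted p = 0.0899), with no count filter (0.0601) or in a fit of the 2 groups alone (0.168). With 1 library left out PLCB3 passed on leaving out knockout R369W replicate 1 but none of the other 5 libraries. The median log2 difference of the 34 genes was -0.022 with ETV6 against EV in unedited cells and -0.064 in knockout cells, beside 0.0077 and -0.0018 over all genes tested.

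Across the 18 libraries, which share the 6 groups and the replicate numbers, the log2 CPM of the genes most like each regulator is a description only. Among 10747 genes, PROS1 followed DYNC2H1 (Pearson r = 0.978) and CRTAP (0.971) most closely. TFPI2 followed NTS (0.924) and MLLT11 (0.908), and SERPINB2 followed FBN1 (0.932) and STRIP2 (0.912). F2R followed TRIM22 (0.938) and FZD7 (0.935), and TFPI followed C18orf21 (0.954) and STK17B (0.930). PLAU followed SPATS2L (0.913) and IGFBP4 (0.906), and PLAUR followed REEP5 (0.837) and ANXA1 (0.826). Among the 7 regulators the pairs that moved most alike were PLAU with PLAUR (r = 0.785) and TFPI2 with SERPINB2 (0.687), and those most opposed were TFPI with F2R (-0.711) and PROS1 with SERPINB2 (-0.680).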

How the data were processed

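RNA of 18 MEG-01 libraries was counted per gene. The deposited values are unnormalized counts (whole reads of each gene), and HISAT2, SAMtools, HTSeq and GRCh38 are named in the submitters' processing notes, without tool versions. The libraries were stranded, per the labels' protocols, and neither the gene annotation used for counting nor its strand setting is given in the sources used here. The 5 entries for reads given to no gene were left out; they hold 34.4% to 41.6% of the reads per library. Symbols for 20801 identifiers came from a gene name table and for 31 from GENCODE 29, which also gave positions and exon lengths; promoters are RefSeq's (GRCh38.p14). A second deposited file of totals was not used. The genes GNGT1 and SERPINB10, which overlap TFPI2 and SERPINB2, held at most 0 and 1 reads.

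edgeR 4.0.16 in R 4.3.3 kept genes by filterByExpr, scaled by TMM and fitted 1 mean per group over all 18 libraries; quasi-likelihood F tests were two-sided, with Benjamini-Hochberg adjustment over the 12262 genes and a threshold of 0.05. The SE is the log2 fold change divided by the square root of F. CPM uses the scaled library size, and log2 CPM a prior count of 2. The named genes are the 8 regulators, ETV6, up to 4 called genes per comparison of the 4 pathway lists and the 2 genes most like each regulator by Pearson r of log2 CPM (mean of at least 1). The regulators and lists were chosen with earlier results of these data known. The fit was tested on simulated data. A count of 0 allows up to 0.156 to 0.246 CPM, taking 3 reads as the limit, and covers counting error only.

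Replicate numbers pair the libraries where every same-numbered pair deviates together from its group means. In unedited cells such pairs correlated across genes at 0.695 to 0.856 and others at -0.583 to 0.0424. Knockout EV and ETV6 pairs correlated at 0.763 to 0.847 and others at -0.619 to -0.133. Knockout R369W libraries correlated at -0.581 to -0.153 with their own numbers and at 0.739 to 0.872 with 1 other number each, and were not paired. The blocked fits set beside results used the 9 unedited or the 6 knockout EV and ETV6 libraries; those with knockout R369W, between genotypes and for interactions count only among the alternatives. The labels call the libraries biological replicates, without saying what a number stands for. An exact permutation test of 3 against 3 cannot go below p = 0.1, so single genes were tested in the model only. Alternatives were RLE size factors, library size only, DESeq2 1.42.0, limma-voom (limma 3.58.1), no count filter, only the groups compared, the replicate block, leaving out each library, and leaving out both knockout libraries of out-of-run number. Only the replicate block pairs libraries, and libraries were left out without it. The upper adjusted p of the alternatives set beside a blocked call therefore comes from unpaired fits and does not measure how stable that call was.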

Additional observations from a re-analysis of the deposited data

How the results depend on the processing

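The number of the 7 genes called stayed the same under RLE size factors, library size only, limma-voom and no count filter in all 12 tests, and on removing both out-of-run libraries in the 8 tests that use one of them. With only the groups compared, ETV6 against EV in unedited cells went from 1 to 0. With the replicate block it gave 5 there, 1 for R369W against EV and 5 for R369W against ETV6 in unedited cells, and 6 for ETV6 against EV in knockout cells. The block between genotypes rests on the shared numbers 2 and 4 only, with 3 genes called with EV (7.59% of all genes in that fit) and 2 with ETV6 (3.23%), SERPINB2 among them at -4.46 and -2.41, and the labels do not say that these numbers pair across genotypes. With DESeq2 the counts were 3 for knockout against unedited with EV and 1 with ETV6, 3 for ETV6 against EV and 2 for R369W against ETV6 in knockout cells. Leaving out 1 library gave 0 to 1 for ETV6 against EV in unedited cells and for knockout against unedited with ETV6 and with R369W. For the 7 genes the block changed no other call.

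Direction turned only in differences that did not pass. TFPI2 between genotypes with R369W (-0.0082) was 0.15 with limma-voom, 0.82 with the block and -0.75 to 1.62 with 1 library left out. Without both out-of-run libraries, R369W against EV in knockout cells was -0.013 for SERPINB2 and -0.060 for PLAUR. With 1 library left out, R369W against EV in unedited cells ran from -0.12 to 0.046 for TFPI, -0.42 to 0.71 for SERPINB2, -0.10 to 0.93 for PLAU and -0.027 to 0.46 for F2R. R369W against ETV6 in unedited cells ran from -0.62 to 0.31 for PLAU and -0.089 to 0.26 for PLAUR. PLAUR between genotypes with EV ran from -0.048 to 0.17, and PLAU with R369W from -0.047 to 0.69. In knockout cells ETV6 against EV ran from -0.11 to 0.25 for TFPI, R369W against EV from -0.60 to 1.03 for TFPI2, -0.016 to 2.06 for SERPINB2 and -0.060 to 0.19 for PLAUR, and R369W against ETV6 from -0.086 to 0.38 for F2R. Of 1138 recomputed gene differences 1043 kept direction and side of the threshold. The cause of these changes was not tested.

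Over all genes, the number called ran across the alternatives from 2 to 956 for ETV6 against EV (37 as reported), 1 to 251 for R369W against EV (3) and 35 to 1980 for R369W against ETV6 (147) in unedited cells. In knockout cells it ran from 131 to 2904 (224), 0 to 195 (7) and 57 to 362 (151), and between genotypes from 211 to 893 with EV (531), 80 to 741 with ETV6 (310) and 89 to 1010 with R369W (513). Interactions gave 3 to 13 (3), 0 to 14 (5) and 0 (0). PLAT, with 27 reads in all, is limited by depth. Some libraries of TFPI2 and SERPINB2 also hold 0 to 1 reads, and both genes differed between replicate numbers. For ETV6 against EV in unedited cells their SEs were 0.99 and 0.86 without the block and 0.27 and 0.25 with it.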
